A study of Mus musculus with 20 samples.

Results

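The comparison described here is that of bone marrow cells from mice bearing B16F10 melanoma with those from healthy mice, read through 3883 gene sets. Its members were all rows of both enrichment reports that name these groups, which are 3883 of 27169 gene set results over the 7 comparisons of the series. Adult C57BL/6 mice supplied 3 libraries of healthy bone marrow and 3 libraries of bone marrow from B16F10 tumor-bearing animals. B16F10 is a transplantable mouse melanoma line of the same strain background. The labels call the cells myeloid, and all groups were prepared by depletion of CD3e, a T cell surface protein, so both groups carry that selection. Depletion of CD3e by itself does not remove B cells, blood cell progenitors or erythroid cells. RNA was isolated with an RNeasy kit, and the route, dose and time of tumour growth, and how libraries map to animals, are not given in the sources used here.

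Bone marrow makes blood cells from stem cells through progenitors that divide rapidly and then mature. Granulocytes and their precursors are among its most abundant nucleated cells. Their number can be raised in infection and in many tumours at the expense of the lymphoid branch, a process called emergency granulopoiesis. Early granulocyte progenitors fill their granules with enzymes and antimicrobial proteins, which makes the translation, secretion and energy pathways prominent in the dividing stages.

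Each gene set is a named list of genes, either a curated pathway (names starting with REACTOME, KEGG, PID or BIOCARTA) or a signature from a published experiment (named by its first author). Names ending in UP or DN hold the genes that were higher or lower in that experiment. The normalised enrichment score (NES) says how strongly the genes of a set gather at one end of all genes ranked by their difference between the groups. Here a positive NES means higher in B16F10-bearing marrow and a negative NES means higher in healthy marrow. SIZE is the number of genes of the set that were ranked. The leading edge is described by tags, the percentage of the set's genes found before the enrichment maximum, and by list, the percentage of the whole ranking passed to reach it. A high tags with a low list value therefore marks a steep gathering at the very top, and a high value of both marks a broad shift of nearly the whole set. Numbers of leading edge genes were computed from SIZE and the rounded tags, so they are approximate. The rank at maximum is the position in the ranking where the maximum lies, and together these values fit a ranking of 14549 genes. A set was called at a false discovery rate q (FDR q) below 0.05 in the authors' deposited table. All scores and q values below are from the authors' deposited tables.

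The direction of every statement rests on each report listing the sets higher in the group its label names first. The deposited NES of the report for B16F10-bearing marrow was negative throughout, and that for healthy marrow positive, so the scores were given the sign of the group. The values are 1 per set, so no spread between libraries could be computed, and how deeply each library was sequenced is unknown. With 3 libraries against 3 there are 20 relabellings, which cannot give a one-sided p below 0.05, while the smallest nonzero nominal p in the authors' deposited table was 0.00147. The deposited p and q values therefore do not measure the spread between animals. The reports hold no gene names, so the label of the cells could not be checked against single markers, and sets for other blood lineages are given in its place. These cells were sequenced in bulk, so fewer cells of a type and less RNA per cell cannot be told apart in any result below.

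In the authors' deposited table, 781 of 3883 sets (20.1%) were higher in B16F10-bearing marrow and 194 (5.0%) were lower. Sets for neutrophil granules, responses to bacterial lipopolysaccharide, interferon, protein synthesis, mitochondria, the proteasome and cell division were among the higher ones. Sets for long-term stem cells, B cell progenitors, B cell receptor signalling, graft rejection, NOTCH transcription and cell adhesion were among the lower ones. The median NES of all sets was 0.96. The called sets reached an NES of 2.93 on the higher side and -2.74 on the lower side, in the authors' deposited table. Called higher sets had median tags of 47% at a median list of 19%, and called lower sets had 37% at 12%. The sets higher in tumour-bearing marrow thus reached their maximum deeper in the ranking than the sets higher in healthy marrow.

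**Figure D1:**
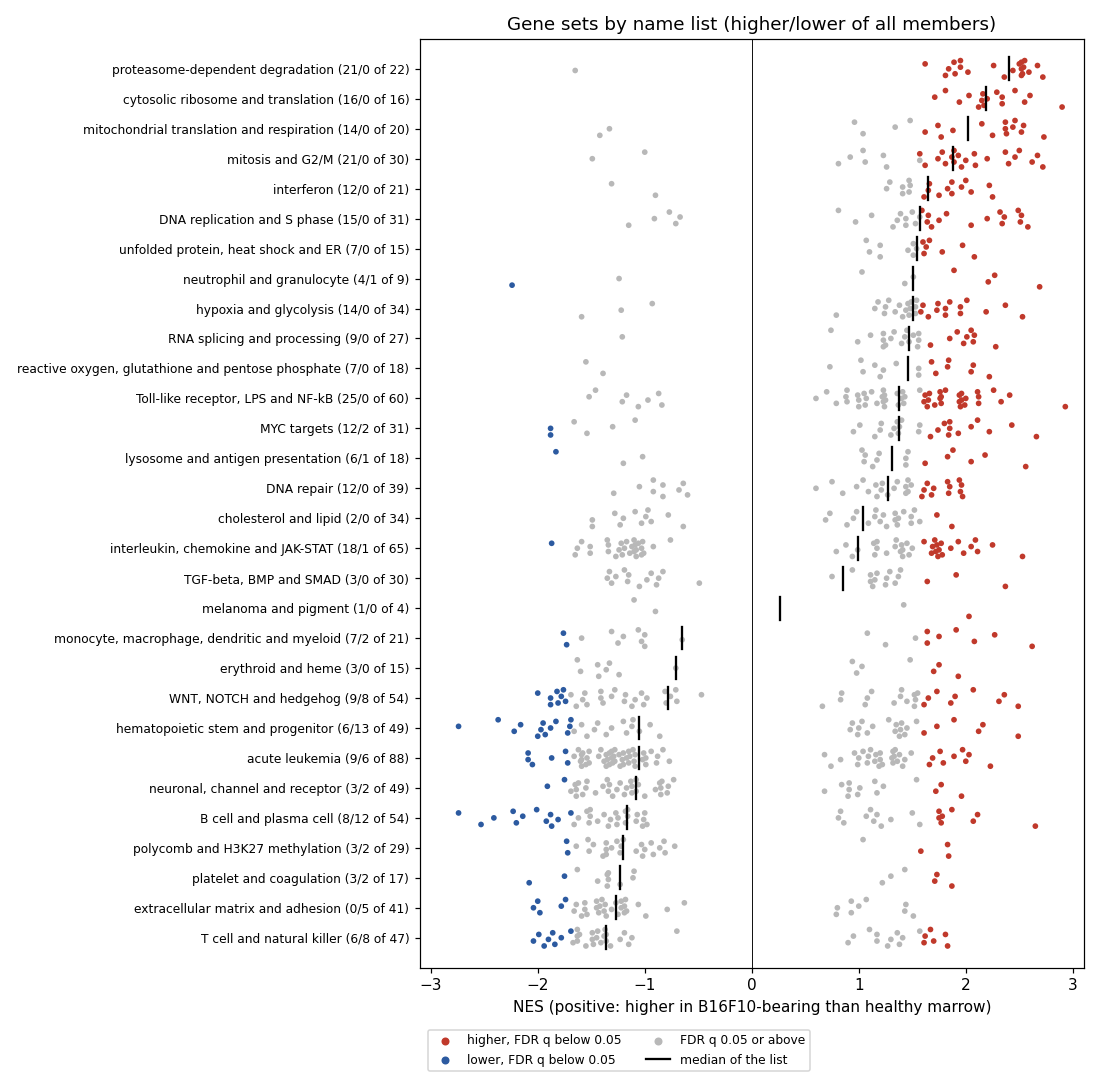
NES of each gene set in 30 lists chosen by words in the set names, with the number called higher and lower of all members beside each list. Each point is 1 set, colour marks the call at FDR q below 0.05, and the black bar is the median; proteasome, translation and mitochondrial sets sit almost wholly on the positive side, while stem cell and B cell sets reach furthest to the negative side.

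Neutrophil and myeloid maturation sets gave some of the steepest scores. Neutrophils store bactericidal proteins in granules that are made in successive stages of maturation, and the sets named here describe that cargo or the factors that drive it. Of 9 neutrophil and granulocyte sets, 4 (44.4%) were higher and 1 (11.1%) was lower, against 20.1% and 5.0% of all sets. REACTOME_NEUTROPHIL_DEGRANULATION, which collects the granule and membrane proteins that neutrophils release, had an NES of 2.69 over 395 genes with 51% tags in the authors' deposited table. LIAN_NEUTROPHIL_GRANULE_CONSTITUENTS, a short list of the granule proteins themselves, had an NES of 2.21 with 18 of its 23 genes in the leading edge (78% tags) in the authors' deposited table. KAMIKUBO_MYELOID_CEBPA_NETWORK, built around C/EBP alpha, a transcription factor needed for granulocyte commitment, scored 2.27 in the authors' deposited table with 81% of 26 genes in the leading edge. The tags of the LIAN and KAMIKUBO sets were well above the 47% median of called higher sets, while those of the degranulation set were close to it.

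THEILGAARD_NEUTROPHIL_AT_SKIN_WOUND_UP, genes raised in neutrophils that have entered wounded skin, had an NES of 1.89 with 43% tags of 65 genes in the authors' deposited table. The exception was TONKS_TARGETS_OF_RUNX1_RUNX1T1_FUSION_GRANULOCYTE_UP, genes raised by a leukemic fusion protein in granulocyte precursors, at -2.24 with 43% of 46 genes before only 8% of the ranking in the authors' deposited table. Among sets of genes raised by C/EBP alpha, HALMOS_CEBPA_TARGETS_UP had 1.51 (q 0.0689) and TAVOR_CEBPA_TARGETS_UP had 1.43 (q 0.0998) in the authors' deposited table, both short of the threshold.

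Of 21 sets for monocytes, macrophages, dendritic cells and myeloid development, 7 were higher and 2 lower, and the median NES was -0.65, below that of all sets. The shares of higher (33.3%) and lower (9.52%) sets were above the 20.1% and 5.0% of all sets, while 12 sets were not called. BROWN_MYELOID_CELL_DEVELOPMENT_UP, genes that rise as a mouse myeloid line matures, had an NES of 2.62 with 57% tags of 137 genes in the authors' deposited table. FOSTER_TOLERANT_MACROPHAGE_UP, genes of macrophages made tolerant to lipopolysaccharide, scored 2.08 in the authors' deposited table with 28% tags inside the top 7% of the ranking. SHAFFER_IRF4_TARGETS_IN_ACTIVATED_DENDRITIC_CELL was lower at -1.73 with 20% tags of 54 genes in the authors' deposited table. ZHONG_SECRETOME_OF_LUNG_CANCER_AND_MACROPHAGE, proteins secreted in co-culture of macrophages and lung cancer cells, was higher at 1.91 in the authors' deposited table with 45% tags of 66 genes. It peaked at rank 2184, as did KEGG_PROTEASOME, so these sets share at least the gene there.

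One published series, IVANOVA_HEMATOPOIESIS, divides mouse bone marrow by stage, and its 8 sets were chosen for this description after their values were seen. The stem cell end was lower and the mature end higher. IVANOVA_HEMATOPOIESIS_STEM_CELL_LONG_TERM, the self-renewing cells that maintain blood for life, had an NES of -2.37 over 167 genes with 38% tags in the authors' deposited table. IVANOVA_HEMATOPOIESIS_STEM_CELL was at -2.22 over 159 genes, also with 38% tags, in the authors' deposited table. IVANOVA_HEMATOPOIESIS_STEM_CELL_SHORT_TERM, whose cells repopulate only for a while, was at -1.95 over 19 genes with 21% tags in the authors' deposited table. The set spanning both compartments, IVANOVA_HEMATOPOIESIS_STEM_CELL_AND_PROGENITOR, was also lower, at -2.16 over 436 genes with 35% tags in the authors' deposited table.

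IVANOVA_HEMATOPOIESIS_EARLY_PROGENITOR, the next stage, was not called, with 1.03 (q 0.473) over 346 genes and 21% tags at a list of 16% in the authors' deposited table, so its genes lay spread along the ranking. IVANOVA_HEMATOPOIESIS_INTERMEDIATE_PROGENITOR was higher at 2.16 over 107 genes with 37% tags in the authors' deposited table. IVANOVA_HEMATOPOIESIS_LATE_PROGENITOR followed at 2.49 over 402 genes with 47% tags in the authors' deposited table. IVANOVA_HEMATOPOIESIS_MATURE_CELL had 2.12 over 229 genes with 53% tags in the authors' deposited table. In this series the 4 stem cell sets were lower and the 3 later stages higher, with the early progenitors in between.

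The wider list of 49 hematopoietic stem and progenitor sets held 6 higher and 13 lower sets, a lower share (26.5%) above the 5.0% of all sets. Its lowest set, and the lowest of all 3883, was HADDAD_B_LYMPHOCYTE_PROGENITOR, genes of human B cell progenitors, at -2.74 with 35% tags of 215 genes in the authors' deposited table. JAATINEN_HEMATOPOIETIC_STEM_CELL_UP, genes of human cord blood stem cells, was at -2.00 with 32% tags of 244 genes in the authors' deposited table. EPPERT_CE_HSC_LSC, genes shared by normal and leukemic stem cells, was at -1.88 with 34% tags of 32 genes in the authors' deposited table. KEGG_HEMATOPOIETIC_CELL_LINEAGE, which holds surface markers and cytokine receptors of all lineages, was at -1.97 with 35% of 80 genes before only 6% of the ranking in the authors' deposited table. The list's higher sets other than the IVANOVA stages included BOQUEST_STEM_CELL_CULTURED_VS_FRESH_UP, from adipose stem cells in culture, at 1.61 with 16% tags of 359 genes in the authors' deposited table, so its name does not refer to blood.

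HOXA9 and MEIS1 are transcription factors of early progenitors that block maturation when overexpressed in leukemia. HESS_TARGETS_OF_HOXA9_AND_MEIS1_DN, genes they repress, scored 2.82 in the authors' deposited table with 43% of 74 genes within the top 6% of the ranking. Its counterpart HESS_TARGETS_OF_HOXA9_AND_MEIS1_UP was not called, at 1.39 (q 0.119) with 46% tags of 57 genes in the authors' deposited table. WANG_IMMORTALIZED_BY_HOXA9_AND_MEIS1_UP, from an experiment on immortalised progenitors, was higher at 1.89 with 50% of 24 genes in the authors' deposited table. WANG_IMMORTALIZED_BY_HOXA9_AND_MEIS1_DN was lower at -2.21 with 59% of 22 genes in the authors' deposited table. The DN set of HESS was thus higher and the DN set of WANG lower. The 2 sources are different experiments, so their DN sets need not hold genes of the same kind. Of 16 sets that name HOXA9 or MEIS1, chosen after their values were seen, 2 were higher and 1 lower. Over all sets 20.1% were higher and 5.0% lower.

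Among 88 acute leukemia signatures, 9 were higher and 6 lower, shares of 10.2% and 6.82%, against 20.1% and 5.0% of all sets. VALK_AML_CLUSTER_5, a patient cluster of acute myeloid leukemia, was highest at 2.23 with 61% tags of 23 genes in the authors' deposited table. VERHAAK_AML_WITH_NPM1_MUTATED_UP was higher at 2.00 with 27% tags of 154 genes in the authors' deposited table. KUMAR_TARGETS_OF_MLL_AF9_FUSION was lower at -2.09 with 23% tags of 348 genes in the authors' deposited table. VALK_AML_CLUSTER_10 was also lower, at -2.09 with 65% tags of 26 genes in the authors' deposited table, the widest leading edge of the leukemia sets that were lower.

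Some lymphoid sets were among the lowest of the lower side. Of 54 B cell and plasma cell sets, 12 (22.2%) were lower and 8 (14.8%) higher, against 5.0% and 20.1% of all sets. The list's median NES was -1.17. KEGG_PRIMARY_IMMUNODEFICIENCY, genes whose loss in people prevents lymphocyte development, was at -2.53 with 15 of 33 genes (45% tags) inside 7% of the ranking in the authors' deposited table. REACTOME_ANTIGEN_ACTIVATES_B_CELL_RECEPTOR_BCR_LEADING_TO_GENERATION_OF_SECOND_MESSENGERS, the receptor-proximal kinases and adaptors, was at -2.23 with 45% tags of 29 genes in the authors' deposited table. SIG_BCR_SIGNALING_PATHWAY at -2.01 with 38% tags of 45 genes and KEGG_B_CELL_RECEPTOR_SIGNALING_PATHWAY at -1.87 with 31% tags of 67 genes were also lower in the authors' deposited table. All 3 receptor sets reached their maximum at rank 1620, so they share at least the gene at that position and are not independent results. HUMMEL_BURKITTS_LYMPHOMA_UP, genes of a germinal-centre lymphoma, was lower at -2.20 with 31% tags of 35 genes in the authors' deposited table.

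Some members of the B cell list were higher. SHIPP_DLBCL_VS_FOLLICULAR_LYMPHOMA_UP, genes of the faster-growing lymphoma, had an NES of 2.65 with 75% tags of 40 genes at a list of 12% in the authors' deposited table. Its counterpart SHIPP_DLBCL_VS_FOLLICULAR_LYMPHOMA_DN was lower at -1.92 with 61% tags of 36 genes in the authors' deposited table. REACTOME_ACTIVATION_OF_NF_KAPPAB_IN_B_CELLS, at 2.11 with 68% tags of 63 genes, and REACTOME_DOWNSTREAM_SIGNALING_EVENTS_OF_B_CELL_RECEPTOR_BCR, at 1.78 with 61% tags of 74 genes, both reached their maximum at rank 2923 in the authors' deposited table. That rank is shared with the proteasome-containing sets described below. REACTOME_INITIAL_TRIGGERING_OF_COMPLEMENT, at 1.87 with 29% tags of 17 genes in the authors' deposited table, entered the list through letters of its name only. KLEIN_TARGETS_OF_BCR_ABL1_FUSION, at -2.41 with 30% tags of 44 genes inside 3% of the ranking in the authors' deposited table, is named for a leukemic kinase fusion and comes from pre-B cell leukemia.

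Published sets by B cell stage, 20 in all and chosen after their values were seen, gave 3 higher and 7 lower. Over all sets 20.1% were higher and 5.0% lower. Of the 7 lower sets only MORI_SMALL_PRE_BII_LYMPHOCYTE_UP was an UP set. The others were DN sets, which hold genes that were lower at the named stage or step. Pre-BI cells rearrange the immunoglobulin heavy chain, large pre-BII cells carry the pre-B cell receptor and divide, small pre-BII cells are resting and rearrange the light chain, and immature B cells carry the finished receptor. MORI_SMALL_PRE_BII_LYMPHOCYTE_UP, the resting stage, was lower at -2.01 with 21% of 67 genes inside 3% of the ranking in the authors' deposited table. MORI_SMALL_PRE_BII_LYMPHOCYTE_DN, its complement, was higher at 1.88 with 44% tags of 64 genes in the authors' deposited table. HOFFMANN_LARGE_TO_SMALL_PRE_BII_LYMPHOCYTE_UP, by its name raised in the step from large to small cells, was higher at 2.14 with 54% tags of 131 genes in the authors' deposited table. Its call was thus opposite to that of MORI_SMALL_PRE_BII_LYMPHOCYTE_UP. MORI_LARGE_PRE_BII_LYMPHOCYTE_UP, the dividing stage, was higher at 1.73 with 60% tags of 72 genes in the authors' deposited table.

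Of the later stages, MORI_MATURE_B_LYMPHOCYTE_DN holds genes low in mature B cells, so it does not describe that stage's own genes. It was lower at -2.11 with 25% of 63 genes inside 3% of the ranking in the authors' deposited table. MORI_MATURE_B_LYMPHOCYTE_UP was not called, at -1.51 (q 0.117) with 28% tags of 74 genes in the authors' deposited table. MORI_PLASMA_CELL_DN, genes low in plasma cells, was lower at -2.23 with 45% tags of 29 genes in the authors' deposited table. MORI_PLASMA_CELL_UP was just outside the threshold at 1.57 (q 0.0513) with 43% tags of 44 genes in the authors' deposited table. MORI_PRE_BI_LYMPHOCYTE_UP, the earliest stage here, had -1.21 (q 0.344) with only 7% of 71 genes in the leading edge in the authors' deposited table, the first 41 positions of the ranking from the healthy end. Of the UP sets of single stages, that for small pre-BII cells was called lower and that for large pre-BII cells higher. The calls of these UP sets were therefore not the same for every B cell stage. What part dividing cells of other types have in them was not tested.

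T cells had been depleted through CD3e in both groups, and T cell and natural killer sets were measured in what remained. Of 47 such sets, 8 (17.0%) were lower and 6 (12.8%) higher, against 5.0% and 20.1% of all sets. The list's median NES was -1.36. REACTOME_PHOSPHORYLATION_OF_CD3_AND_TCR_ZETA_CHAINS, the first step of T cell receptor signalling, was at -2.04 with 8 of 16 genes in the leading edge in the authors' deposited table. REACTOME_PD_1_SIGNALING, an inhibitory checkpoint pathway, was at -1.94 with 8 of 17 genes in the authors' deposited table. Both reached their maximum at rank 1022 and so share at least the gene there. ZHENG_BOUND_BY_FOXP3, genes occupied by the regulatory T cell factor, was at -1.99 with 28% tags of 401 genes in the authors' deposited table. Among the higher members, REACTOME_INTERACTIONS_OF_REV_WITH_HOST_CELLULAR_PROTEINS at 1.81 and REACTOME_INTERACTIONS_OF_VPR_WITH_HOST_CELLULAR_PROTEINS at 1.62 in the authors' deposited table entered through letters of their names and describe nuclear transport.

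KEGG groups several autoimmune and graft conditions whose sets consist largely of MHC molecules, which present peptides to T cells, and of T cell effector genes. The 8 sets of this kind, KEGG_ANTIGEN_PROCESSING_AND_PRESENTATION included and chosen after their values were seen, included 7 lower and none higher. Over all sets 5.0% were lower and 20.1% higher. KEGG_ALLOGRAFT_REJECTION was at -2.40 with 19 of 31 genes (61% tags), and KEGG_GRAFT_VERSUS_HOST_DISEASE at -2.25 with 19 of 32 genes (59% tags), in the authors' deposited table. KEGG_AUTOIMMUNE_THYROID_DISEASE followed at -2.22 with 41% tags of 44 genes in the authors' deposited table. KEGG_TYPE_I_DIABETES_MELLITUS was at -2.04 with 51% tags of 37 genes in the authors' deposited table. All 4 reached their maximum at rank 1581 and share at least 1 gene, so they count as closely related readings.

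KEGG_ANTIGEN_PROCESSING_AND_PRESENTATION was lower at -1.83 with 31% of 71 genes inside 6% of the ranking in the authors' deposited table. REACTOME_CLASS_I_MHC_MEDIATED_ANTIGEN_PROCESSING_PRESENTATION, which is dominated by ubiquitin ligases and proteasome subunits, was higher at 1.88 with 39% tags of 321 genes in the authors' deposited table. KEGG_LYSOSOME, the enzymes of the degradative compartment, was higher at 2.18 with 43% tags of 117 genes in the authors' deposited table. Of the 18 lysosome and antigen presentation sets, 6 were higher and the KEGG presentation set was the 1 lower. These shares were 33.3% and 5.56%, against 20.1% and 5.0% of all sets.

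Erythroid and platelet sets gave mixed calls. Of 15 erythroid and heme sets, 3 were higher and none lower, a share near the 20.1% of all sets, and the list's median NES was -0.71. WELCH_GATA1_TARGETS, genes switched on by the master factor of red cell precursors, had an NES of 1.93 with 65% tags of 20 genes in the authors' deposited table. KEGG_PORPHYRIN_AND_CHLOROPHYLL_METABOLISM, which includes heme synthesis, was at 1.70 with 47% tags of 32 genes in the authors' deposited table. The 7 sets of the RIZ_ERYTHROID_DIFFERENTIATION series were not called, and RIZ_ERYTHROID_DIFFERENTIATION itself had 0.94 (q 0.623) in the authors' deposited table. 1 other member, CHEMELLO, entered the list through letters of its name. Of 17 platelet and coagulation sets, 2 (11.8%) were lower and 3 (17.6%) higher, against 5.0% and 20.1% of all sets. REACTOME_PLATELET_AGGREGATION_PLUG_FORMATION was at -2.08 with 34% of 38 genes inside 5% of the ranking, and the platelet-specific gene set of Raghavachari at -1.75 with 20% of 61 genes inside 2%, in the authors' deposited table. The part of such lineage differences in the other results was not tested.

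Inflammatory sets were higher in part of their list. Toll-like receptors sense bacterial products such as lipopolysaccharide and signal through the adaptors MYD88 and TRIF to NF-kB. Of 60 sets on these receptors, lipopolysaccharide, tumour necrosis factor and NF-kB, 25 (41.7%) were higher and none lower. The shares over all sets were 20.1% and 5.0%, and the list's median NES was 1.38. ALTEMEIER_RESPONSE_TO_LPS_WITH_MECHANICAL_VENTILATION, from mouse lung, had the largest NES of all, 2.93, with about 50 of 110 genes (45% tags) inside the top 6% of the ranking in the authors' deposited table. PID_TOLL_ENDOGENOUS_PATHWAY, receptors and co-receptors for self ligands, was at 2.33 with 45% of 22 genes, also inside 6%, in the authors' deposited table. NEMETH_INFLAMMATORY_RESPONSE_LPS_UP, from a macrophage line, was at 2.26 with 40% tags of 75 genes in the authors' deposited table.

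The 6 Reactome cascades downstream of the Toll-like receptors, chosen after their values were seen, were all higher, against 20.1% of all sets. REACTOME_TRIF_TICAM1_MEDIATED_TLR4_SIGNALING was at 2.00 with 41% tags of 85 genes in the authors' deposited table. REACTOME_TOLL_LIKE_RECEPTOR_9_TLR9_CASCADE was at 1.95 with 40% of 82 genes, and REACTOME_MYD88_CASCADE_INITIATED_ON_PLASMA_MEMBRANE at 1.76 with 38% of 71 genes, in the authors' deposited table. All 6 peaked at rank 2454, so they share at least the gene there and are not independent results. REACTOME_DECTIN_1_MEDIATED_NONCANONICAL_NF_KB_SIGNALING, a fungal receptor pathway, was at 2.41 with 71% tags of 58 genes in the authors' deposited table but peaked at rank 2923 with the proteasome sets.

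Of 21 interferon sets, 12 (57.1%) were higher and none lower, against 20.1% and 5.0% of all sets. The list's median NES was 1.65. Interferons induce antiviral genes through JAK kinases and STAT factors. ZHANG_INTERFERON_RESPONSE was at 2.25 with 9 of 16 genes (56% tags) inside 7% of the ranking in the authors' deposited table. REACTOME_INTERFERON_ALPHA_BETA_SIGNALING, the type I pathway, was at 1.87 with 21% of 57 genes inside 2% in the authors' deposited table. REACTOME_REGULATION_OF_IFNA_SIGNALING, at 2.22, had the lowest tags of the called sets, a value it shared with ABE_VEGFA_TARGETS and CADWELL_ATG16L1_TARGETS_UP, with about 3 of 24 genes (13%) before rank 185, in the authors' deposited table. Its score thus rests on very few genes. By contrast REACTOME_ANTIVIRAL_MECHANISM_BY_IFN_STIMULATED_GENES, at 2.05, spread 64% of 74 genes over 28% of the ranking in the authors' deposited table and peaked at rank 4004. The 12 called sets with that rank were all Reactome pathways, most of them on RNA transport, RNA processing or viral RNA, among them REACTOME_NUCLEAR_IMPORT_OF_REV_PROTEIN at 1.66 with 65% tags of 31 genes in the authors' deposited table.

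Of 65 interleukin, chemokine and JAK-STAT sets, 18 (27.7%) were higher and 1 (1.54%) lower, against 20.1% and 5.0% of all sets. The list's median NES was 0.99, close to the 0.96 of all sets. REACTOME_INTERLEUKIN_1_SIGNALING was highest, at 2.53 with 63% tags of 90 genes in the authors' deposited table, and also peaked at rank 2923. ZHENG_IL22_SIGNALING_UP, genes induced by an epithelial defence cytokine, was at 2.09 with 37% of 51 genes inside 9% in the authors' deposited table. PID_IL3_PATHWAY, for a growth factor of myeloid progenitors, was at 2.05 with 28% of 25 genes inside 3%, and PID_GMCSF_PATHWAY, for the granulocyte-macrophage factor, at 1.74 with 41% tags of 32 genes, in the authors' deposited table. BIOCARTA_IL6_PATHWAY was at 1.73 with 44% tags of 18 genes in the authors' deposited table. The 1 lower set was BIOCARTA_IL7_PATHWAY, for the cytokine that B and T cell precursors need, at -1.87 with 7 of 15 genes in the leading edge in the authors' deposited table.

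Protein synthesis sets were higher throughout their list. All 16 sets of the cytosolic ribosome, ribosomal RNA, tRNA charging and translation were higher, against 20.1% of all sets. The list had a median NES of 2.19 and median tags of 81.5% at a list value of 33%. REACTOME_TRANSLATION was at 2.90 with about 194 of 236 genes (82% tags) in the leading edge in the authors' deposited table. KEGG_RIBOSOME, the ribosomal proteins, was at 2.12 with 53 of 55 genes (96% tags), but reached its maximum only at rank 5925, 41% of the ranking, in the authors' deposited table. REACTOME_CYTOSOLIC_TRNA_AMINOACYLATION, the enzymes that load amino acids on tRNA, was steeper, at 2.34 with 22 of 24 genes (92% tags) within 20% of the ranking in the authors' deposited table. REACTOME_RRNA_PROCESSING, ribosome assembly in the nucleolus, was at 2.60 with 80% tags of 150 genes in the authors' deposited table.

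A group of 6 amino acid and polyamine sets, chosen after their values were seen, were all higher, against 20.1% of all sets. Of these, REACTOME_METABOLISM_OF_POLYAMINES peaked at rank 2923 with the proteasome sets, and REACTOME_SELENOAMINO_ACID_METABOLISM at rank 4843 with ribosomal RNA processing sets. KRIGE_AMINO_ACID_DEPRIVATION, the stress response to scarce amino acids, was at 2.44 with 50% of 28 genes within the top 3% of the ranking in the authors' deposited table. REACTOME_PERK_REGULATES_GENE_EXPRESSION, at 2.08 with 66% tags of 29 genes, and REACTOME_ATF4_ACTIVATES_GENES_IN_RESPONSE_TO_ENDOPLASMIC_RETICULUM_STRESS, at 1.97 with 63% tags of 24 genes, hold the kinase and factor of a related stress branch in the authors' deposited table. These are 2 of 7 higher sets among 15 on unfolded protein, heat shock and the endoplasmic reticulum, of which none was lower. The higher share of that list was 46.7%, against 20.1% of all sets. REACTOME_UNFOLDED_PROTEIN_RESPONSE_UPR, the whole response, was at 1.78 with 35% tags of 81 genes in the authors' deposited table. KEGG_ARGININE_AND_PROLINE_METABOLISM, which includes the arginine-degrading enzymes, was at 1.72 with 29% tags of 48 genes in the authors' deposited table.

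Of 20 mitochondrial sets, 14 (70.0%) were higher and none lower, against 20.1% and 5.0% of all sets. REACTOME_MITOCHONDRIAL_TRANSLATION, the organelle's own ribosome, was at 2.73 with 69 of 81 genes (85% tags) in the authors' deposited table. REACTOME_RESPIRATORY_ELECTRON_TRANSPORT was at 2.52 with 84% tags of 68 genes, and REACTOME_COMPLEX_I_BIOGENESIS at 2.25 with 92% tags of 39 genes, in the authors' deposited table. MOOTHA_TCA, the citric acid cycle, had every one of its 15 genes in the leading edge (100% tags) at a list of 27%, and its NES was 1.96 in the authors' deposited table. Of the 6 sets that were not called, REACTOME_MITOCHONDRIAL_BIOGENESIS had -1.33 (q 0.234), REACTOME_MITOCHONDRIAL_FATTY_ACID_BETA_OXIDATION 1.34 (q 0.147) and BIOCARTA_MITOCHONDRIA_PATHWAY, an apoptosis pathway, 0.96 (q 0.587), in the authors' deposited table.

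Hypoxia and glycolysis sets were higher in 14 of 34 (41.2%) and lower in none, against 20.1% and 5.0% of all sets. LEONARD_HYPOXIA, genes induced in kidney cells at low oxygen, was at 2.37 with 44% of 41 genes inside 7% of the ranking in the authors' deposited table. KEGG_GLYCOLYSIS_GLUCONEOGENESIS was at 1.81 with 33% tags of 48 genes in the authors' deposited table. REACTOME_CELLULAR_RESPONSE_TO_HYPOXIA, at 2.53 with 70% tags of 66 genes in the authors' deposited table, includes the proteasomal destruction of the oxygen-sensing factor and peaked at rank 2923. Of 18 sets on reactive oxygen, glutathione and the pentose phosphate pathway, 7 (38.9%) were higher and none lower, again against 20.1% and 5.0%. KEGG_GLUTATHIONE_METABOLISM was at 2.07 with 36% of 42 genes inside 6%, and REACTOME_ROS_AND_RNS_PRODUCTION_IN_PHAGOCYTES, the oxidative burst, at 2.05 with 60% tags of 35 genes, in the authors' deposited table. REACTOME_TRANSFERRIN_ENDOCYTOSIS_AND_RECYCLING, the main route of iron uptake, was at 2.05 with 38% tags of 29 genes in the authors' deposited table. Of 34 cholesterol and lipid sets, 2 were higher and none lower, 5.88% against 20.1% of all sets.

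**Figure D2:**
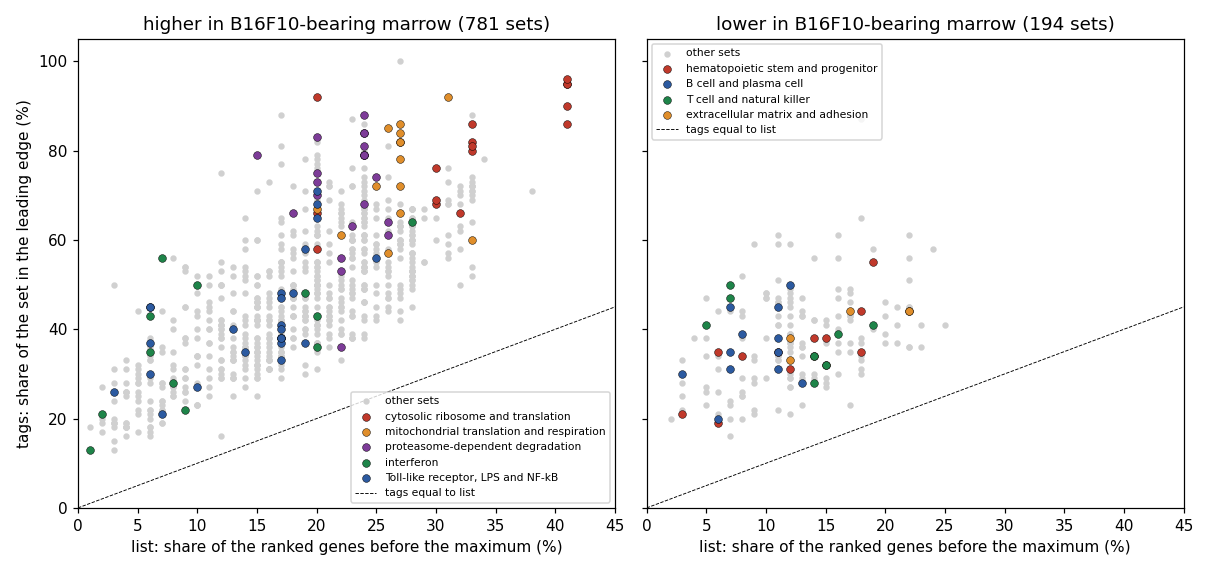
Leading edges of the called sets, with list (%) on the horizontal axis and tags (%) on the vertical axis, for sets higher (left, 781) and lower (right, 194) in B16F10-bearing marrow. Coloured points are 5 lists on the left and 4 on the right; translation, mitochondrial and proteasome sets lie at high tags and high list, interferon sets reach the lower left corner, and the lower sets end at a list of 25%.

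A large block of curated sets higher in B16F10-bearing marrow ended in protein degradation by the proteasome. The proteasome degrades ubiquitin-tagged proteins, and Reactome places its subunits in every pathway that ends in such degradation. Of 22 sets in that list, 21 (95.5%) were higher and none lower, against 20.1% and 5.0% of all sets. The list's median NES was 2.40, and the higher sets had median tags of 74%. Of the 21 higher sets, 12 peaked at rank 2923 or 3446. KEGG_PROTEASOME was higher at 2.52 with 79% tags of 42 genes and peaked at another rank, 2184, in the authors' deposited table. REACTOME_REGULATION_OF_APOPTOSIS, at 2.53 with 86% tags of 50 genes, and REACTOME_VIF_MEDIATED_DEGRADATION_OF_APOBEC3G, at 2.59 with 88% tags of 48 genes, are sets of this kind in the authors' deposited table. Both reached their maximum at rank 3446, as did 20 other called sets, while 27 called sets reached theirs at rank 2923. Of these 49 sets, 46 were Reactome pathways, under names as different as REACTOME_METABOLISM_OF_POLYAMINES (2.66, 78% tags of 54 genes), REACTOME_NEGATIVE_REGULATION_OF_NOTCH4_SIGNALING (2.49, 82% tags of 51 genes) and REACTOME_HEDGEHOG_LIGAND_BIOGENESIS (2.31, 73% tags of 62 genes) in the authors' deposited table. An enrichment maximum lies at a member gene, so sets that peak at 1 rank in 1 direction share the gene there. Counting each rank once leaves 509 of the 781 higher sets and 171 of the 194 lower sets.

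**Figure D3:**
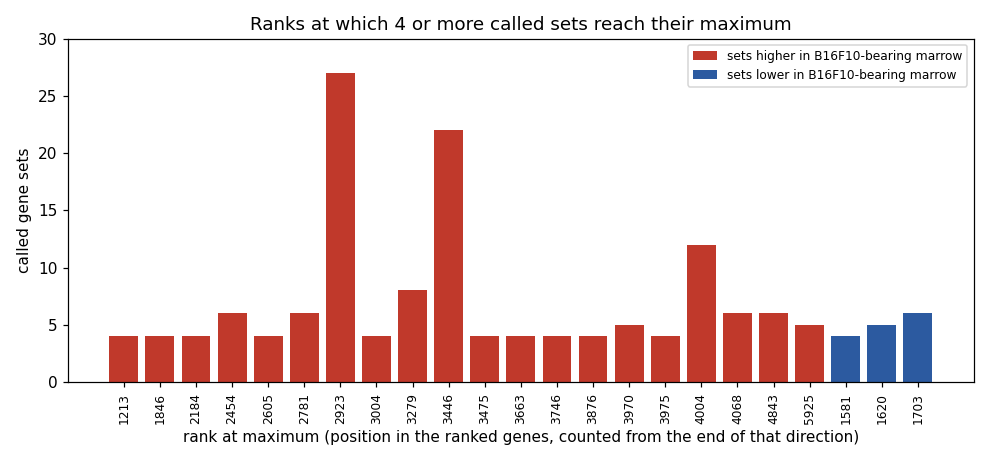
Number of called gene sets (vertical axis) that reach their enrichment maximum at the same rank (horizontal axis), for ranks with 4 or more sets. Ranks 2923 and 3446 hold 27 and 22 of the sets higher in B16F10-bearing marrow, and no rank of the lower sets holds more than 6.

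Cell division sets were higher in much of their lists. Of 30 mitosis and G2/M sets, 21 (70.0%) were higher and none lower, against 20.1% and 5.0% of all sets. Of these 21, 6 peaked at rank 2923 or 3446. REACTOME_CELL_CYCLE_MITOTIC, the whole cycle, was at 2.08 with 53% tags of 450 genes in the authors' deposited table. REACTOME_MITOTIC_SPINDLE_CHECKPOINT, the surveillance of chromosome attachment, was at 2.09 with 56% tags of 96 genes and peaked at another rank in the authors' deposited table. FISCHER_G2_M_CELL_CYCLE, a consensus of genes peaking before division, was at 1.87 with 45% tags of 201 genes in the authors' deposited table. REACTOME_MITOTIC_PROMETAPHASE, 169 genes with 34% tags, was just outside the threshold at 1.57 (q 0.0506) in the authors' deposited table.

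Of 31 DNA replication and S phase sets, 15 (48.4%) were higher and none lower, against 20.1% and 5.0% of all sets. Of these 15, 6 peaked at those ranks. REACTOME_DNA_REPLICATION was at 2.52 with 63% tags of 113 genes in the authors' deposited table. DNA repair sets were higher in 12 of 39 (30.8%), against 20.1% of all sets. The highest was MACLACHLAN_BRCA1_TARGETS_UP at 1.97 with 72% tags of 18 genes in the authors' deposited table. RNA splicing and processing sets were higher in 9 of 27 (33.3%), also against 20.1%, with REACTOME_MRNA_SPLICING at 2.05 and 52% tags of 156 genes in the authors' deposited table. Of 31 sets for targets of MYC, a growth-promoting factor, 12 (38.7%) were higher and 2 (6.45%) lower, against 20.1% and 5.0% of all sets. SCHLOSSER_MYC_TARGETS_REPRESSED_BY_SERUM was highest at 2.66 with 61% tags of 140 genes, while SANSOM_WNT_PATHWAY_REQUIRE_MYC, from gut epithelium, was lower at -1.88 with 22% tags of 58 genes, in the authors' deposited table.

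NOTCH, WNT and hedgehog sets fell on both sides, with 9 of 54 (16.7%) higher and 8 (14.8%) lower. The shares over all sets were 20.1% and 5.0%. NOTCH receptors release an intracellular domain that switches on transcription, and in marrow they are known for T lineage and stem cell roles. The higher NOTCH sets, REACTOME_NEGATIVE_REGULATION_OF_NOTCH4_SIGNALING and REACTOME_SIGNALING_BY_NOTCH4 (1.86, 59% tags of 78 genes in the authors' deposited table), both peaked at rank 2923. REACTOME_NOTCH_HLH_TRANSCRIPTION_PATHWAY, the transcription complex, was lower at -2.00 with 13 of 27 genes in the leading edge in the authors' deposited table. REACTOME_NOTCH1_INTRACELLULAR_DOMAIN_REGULATES_TRANSCRIPTION was at -1.82 with 37% tags of 43 genes, and VILIMAS_NOTCH1_TARGETS_UP, genes induced by active NOTCH1 in bone marrow progenitors, at -1.88 with 38% tags of 52 genes, in the authors' deposited table. Of 16 Reactome NOTCH sets, chosen after their values were seen, 2 were higher and 4 lower, against 20.1% and 5.0% of all sets.

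Adhesion and matrix sets were lower in 5 of 41 (12.2%) and higher in none, against 5.0% and 20.1% of all sets. The other 36 sets were not called. Some proteins of this kind anchor stem cells and lymphoid precursors in their marrow niche, a link that was not tested here. KEGG_CELL_ADHESION_MOLECULES_CAMS was at -2.04 with 38% tags of 113 genes, and KEGG_ECM_RECEPTOR_INTERACTION, integrins with their ligands, at -2.00 with 33% tags of 79 genes, in the authors' deposited table. REACTOME_NON_INTEGRIN_MEMBRANE_ECM_INTERACTIONS was at -1.98 with 44% tags of 57 genes in the authors' deposited table. NABA_COLLAGENS (-1.78) and REACTOME_COLLAGEN_CHAIN_TRIMERIZATION (-1.74) agree in size, 39 genes, and in rank and leading edge (44% tags) in the authors' deposited table, so they may hold the same genes and count as closely related readings.

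Of 29 sets for polycomb, the repressive chromatin complex, 3 (10.3%) were higher and 2 (6.90%) lower, against 20.1% and 5.0% of all sets. REACTOME_PRC2_METHYLATES_HISTONES_AND_DNA was higher at 1.83 with 54% tags of 46 genes and MIKKELSEN_ES_ICP_WITH_H3K4ME3_AND_H3K27ME3 lower at -1.73 with 23% tags of 112 genes, in the authors' deposited table. Of 30 TGF-beta, BMP and SMAD sets, 3 were higher, a lower share than the 20.1% of all sets, led by KARLSSON_TGFB1_TARGETS_UP at 2.37 with 69% tags of 103 genes in the authors' deposited table. Of 49 neuronal, channel and receptor sets, 3 (6.12%) were higher and 2 (4.08%) lower, both shares below those of all sets. REACTOME_VOLTAGE_GATED_POTASSIUM_CHANNELS was lowest at -1.91 with 46% tags of 39 genes in the authors' deposited table. Of 4 melanoma and pigment sets, WINNEPENNINCKX_MELANOMA_METASTASIS_UP was higher at 2.03 with 57% tags of 134 genes in the authors' deposited table, and it peaked at rank 3663 with BENPORATH_PROLIFERATION. KEGG_MELANOMA had -1.10 (q 0.471) in the authors' deposited table.

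Signatures that come as a pair of UP and DN sets can be set side by side. They come from other experiments with no order expected here, so they do not test which group was higher. Of 701 such pairs, 47 had both sets called. In 16 of them the UP set was higher and the DN set lower, in 9 the reverse, in 22 both were higher, and in none were both lower. Pairs in which both sets were higher thus nearly equalled the 25 pairs with opposite calls. YU_MYC_TARGETS gave 2.22 for UP and -2.03 for DN, and WINTER_HYPOXIA 2.19 and -1.73, in the authors' deposited table. In the reverse order, BOYLAN_MULTIPLE_MYELOMA_C_D gave -2.41 for UP and 1.72 for DN, and GAL_LEUKEMIC_STEM_CELL -1.93 and 1.95, in the authors' deposited table.

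The largest and smallest sets and those near the threshold complete the description. The largest called higher sets were FLECHNER_BIOPSY_KIDNEY_TRANSPLANT_OK_VS_DONOR_UP (471 genes, 1.59, 31% tags), FEVR_CTNNB1_TARGETS_DN (469 genes, 1.67, 38% tags) and TIEN_INTESTINE_PROBIOTICS_24HR_UP (466 genes, 2.17, 55% tags) in the authors' deposited table. The smallest were ABE_VEGFA_TARGETS, where 2 of 15 genes formed the leading edge (1.61), BIOCARTA_HIF_PATHWAY (15 genes, 1.65, 40% tags) and GHO_ATF5_TARGETS_DN (15 genes, 1.84, 73% tags) in the authors' deposited table. On the lower side HOLLERN_ADENOMYOEPITHELIAL_BREAST_TUMOR had the widest leading edge, 13 of 15 genes (87% tags) at -2.03 in the authors' deposited table. Just inside the threshold lay CREIGHTON_AKT1_SIGNALING_VIA_MTOR_UP (q 0.0499) and PID_BCR_5PATHWAY (q 0.0498), and just outside WANG_TNF_TARGETS (q 0.0504) and REACTOME_SIGNALING_BY_NOTCH1 (q 0.0521), in the authors' deposited table.

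Marrow of mice bearing YUMM3.3, a line from an engineered mouse melanoma, (2 libraries) was compared with the same 3 healthy libraries, so both tumour comparisons share them and are only set side by side. With YUMM3.3, 376 sets (9.68%) were higher and 253 (6.52%) lower than healthy, in the authors' deposited table. The direct comparison of B16F10-bearing with YUMM3.3-bearing marrow called 314 sets (8.09%) higher and 326 (8.40%) lower, in the authors' deposited table. KEGG_RIBOSOME was at 2.12 with B16F10 and at 3.13 with YUMM3.3, and the direct comparison gave -3.20 (q listed at 0), in the authors' deposited table. The ribosome set was thus higher with both tumours and higher with YUMM3.3 than with B16F10.

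REACTOME_NEUTROPHIL_DEGRANULATION was at 2.69 with B16F10 and at 1.41 (q 0.157) with YUMM3.3, and the direct comparison gave 1.28 (q 0.252), in the authors' deposited table. A difference between the tumours in this set was therefore not called. ALTEMEIER_RESPONSE_TO_LPS_WITH_MECHANICAL_VENTILATION was at 2.93 with B16F10 and 0.94 (q 0.748) with YUMM3.3, and the direct comparison gave 1.66 (q 0.0483), in the authors' deposited table. IVANOVA_HEMATOPOIESIS_MATURE_CELL was at 2.12 with B16F10 and -2.17 with YUMM3.3, with 2.55 (q listed at 0) directly, in the authors' deposited table. REACTOME_TOLL_LIKE_RECEPTOR_9_TLR9_CASCADE was at 1.95 and -1.80 with 2.06 (q 0.00245) directly, in the authors' deposited table. These sets had opposite calls with the 2 tumours or a called direct difference. IVANOVA_HEMATOPOIESIS_STEM_CELL_LONG_TERM was at -2.37 with B16F10 and 0.70 (q 0.969) with YUMM3.3, but the direct comparison gave -1.34 (q 0.220), in the authors' deposited table, so that difference was not called.

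Spleen of B16F10-bearing and healthy mice was measured in other libraries, 2 in each group. There 643 sets (16.6%) were higher and 62 (1.6%) lower, in the authors' deposited table. NES in marrow and spleen correlated over 3883 sets with Pearson's r of 0.56 and Spearman's rho of 0.64, as a description across sets that share genes. Of the sets called higher in marrow, 396 were also called higher in spleen, 50.7% of the marrow sets and 61.6% of the spleen sets. Of those lower in marrow, 27 were lower in spleen, 13.9% of the marrow sets and 43.5% of the spleen sets.

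Only 2 sets had opposite calls in the tissues. MORI_MATURE_B_LYMPHOCYTE_DN was at -2.11 in marrow and 2.26 in spleen, and REACTOME_CELL_SURFACE_INTERACTIONS_AT_THE_VASCULAR_WALL at -1.94 and 1.75, in the authors' deposited table. LIAN_NEUTROPHIL_GRANULE_CONSTITUENTS was higher in both, at 2.21 and 2.07, and KEGG_PRIMARY_IMMUNODEFICIENCY lower in both, at -2.53 and -2.20, in the authors' deposited table. REACTOME_TOLL_LIKE_RECEPTOR_CASCADES was at 1.99 in marrow and at 1.11 (q 0.482) in spleen in the authors' deposited table, and whether the tissues differ there was not tested.

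**Figure D4:**
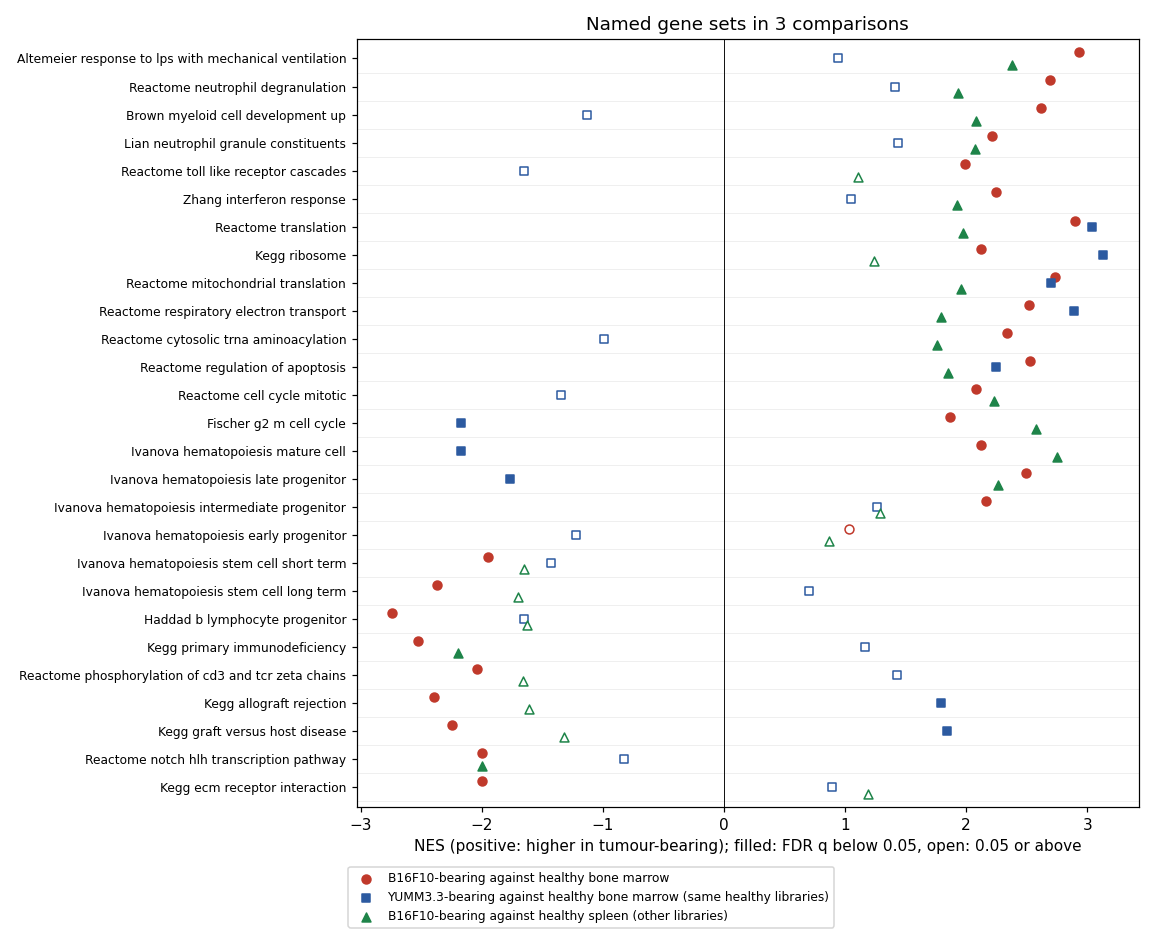
NES (horizontal axis) of 27 named gene sets with B16F10 in marrow (circles), YUMM3.3 in marrow (squares, same healthy libraries) and B16F10 in spleen (triangles, other libraries), filled where FDR q is below 0.05. The marrow and spleen values with B16F10 share their sign in 26 of the sets, while the mature cell, late progenitor, G2/M, allograft and graft-versus-host sets have called values of opposite sign with the 2 tumours.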

How the data were processed

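Per the submitters' processing notes, the tools were DESeq2 1.22.2, featureCounts 1.6.0, FastQC 0.11.8 and STAR 2.7.1a, with the mm10 build; the enrichment tool's settings, gene ranking and permutation scheme are not given in the sources used here. Per the file headers, the deposited tables hold an enrichment score and its normalised score for each gene set, with size, rank at maximum and leading edge. The deposited p-values are a nominal p, a family-wise p and an FDR q, per the file headers, and leading edges are given as percent.

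Both reports of each comparison were joined and signed with pandas 2.3.3. Sets at FDR q below 0.05 were called, with no test beyond the authors'. Set names were sorted into 31 lists by words, leaving out names ending in DN; 1 list and 1 set are not reported here. The members and lists were chosen with earlier results of these data known. Named were, in each direction, the 15 sets of largest NES, up to 4 of each list, the 5 largest and smallest tags, and 3 sets on each side of the threshold and at each end of size; 189 sets met this rule, and 10 families were added after their values were seen. The few other sets named were also chosen after their values were seen. Counting and list membership were tested on simulated names. Alternatives were other thresholds and filters on sets.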

Additional observations from a re-analysis of the deposited data

Results flagged for a closer look

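For 25 sets described here, of 51 among all 3883, the difference from healthy marrow was called in opposite directions with the 2 tumours, and the direct comparison of B16F10-bearing with YUMM3.3-bearing marrow was called too. All 3 comparisons share libraries, so these values are not independent. Every value is an NES of the authors' deposited tables, given in the order B16F10 against healthy, YUMM3.3 against healthy and B16F10 against YUMM3.3.

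Of the maturation series, IVANOVA_HEMATOPOIESIS_LATE_PROGENITOR had 2.49, -1.77 and 2.18, and IVANOVA_HEMATOPOIESIS_MATURE_CELL had 2.12, -2.17 and 2.55. Of the mitosis sets, FISCHER_G2_M_CELL_CYCLE had 1.87, -2.17 and 2.41, and REACTOME_MITOTIC_SPINDLE_CHECKPOINT had 2.09, -1.82 and 2.11. KAMMINGA_EZH2_TARGETS, of the polycomb list, had 1.58, -1.72 and 1.87. FLECHNER_BIOPSY_KIDNEY_TRANSPLANT_OK_VS_DONOR_UP had 1.59, -1.84 and 1.99, and NAKAMURA_CANCER_MICROENVIRONMENT_DN had 2.09, -1.69 and 2.01.

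Of the Toll-like receptor cascades, REACTOME_TRIF_TICAM1_MEDIATED_TLR4_SIGNALING had 2.00, -1.81 and 2.07, REACTOME_TOLL_LIKE_RECEPTOR_9_TLR9_CASCADE had 1.95, -1.80 and 2.06, and REACTOME_TOLL_LIKE_RECEPTOR_4_TLR4_CASCADE had 1.96, -1.73 and 1.96. The sets that peaked at rank 4004 included REACTOME_ANTIVIRAL_MECHANISM_BY_IFN_STIMULATED_GENES at 2.05, -1.69 and 2.00, and REACTOME_INTERACTIONS_OF_REV_WITH_HOST_CELLULAR_PROTEINS at 1.81, -1.77 and 1.96. REACTOME_INTERACTIONS_OF_VPR_WITH_HOST_CELLULAR_PROTEINS had 1.62, -1.81 and 1.92, and REACTOME_NUCLEAR_IMPORT_OF_REV_PROTEIN had 1.66, -2.01 and 2.12. REACTOME_TRANSPORT_OF_THE_SLBP_DEPENDANT_MATURE_MRNA had 1.59, -1.96 and 2.10. A single platelet set, REACTOME_PLATELET_SENSITIZATION_BY_LDL, had 1.73, -1.94 and 1.87.

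The other 9 sets were lower with B16F10 and higher with YUMM3.3. KEGG_ALLOGRAFT_REJECTION had -2.40, 1.79 and -2.21, and KEGG_GRAFT_VERSUS_HOST_DISEASE had -2.25, 1.84 and -2.32. KEGG_AUTOIMMUNE_THYROID_DISEASE had -2.22, 1.71 and -1.90, and KEGG_TYPE_I_DIABETES_MELLITUS had -2.04, 1.69 and -2.02. KEGG_ANTIGEN_PROCESSING_AND_PRESENTATION had -1.83, 1.72 and -2.04, and REACTOME_PD_1_SIGNALING had -1.94, 1.74 and -2.11. VILIMAS_NOTCH1_TARGETS_UP had -1.88, 1.77 and -2.09. NABA_COLLAGENS had -1.78, 1.66 and -1.87, and REACTOME_COLLAGEN_CHAIN_TRIMERIZATION had -1.74, 1.65 and -1.88.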

How the results depend on the processing

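The count of 781 sets higher became 1442 at q below 0.25, 429 at q below 0.01 and 187 at a family-wise p below 0.05. It was 514 over the 2493 published signatures alone, and 509 with sets of 1 shared rank counted once, an alternative chosen after seeing the data. The count of 194 sets lower became 674, 82 and 33 at the same 3 thresholds, and 521 at a nominal p below 0.05. The other alternatives kept both counts within 1.5 times of these. Of 189 named sets, 46 were no longer called at q below 0.01 and 101 at the family-wise threshold. Counts within the name lists moved by over 1.5 times in 43 cases at q below 0.25 and in 40 at the family-wise threshold. Leaving out single libraries was not run, because the deposited reports give 1 value per set and comparison. No paired analysis was possible because the reports hold no values per library and the labels carry no shared replicate numbers. Depth is unknown here, so what it limits could not be stated.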
